A study of Mus musculus with 12 samples.

Results

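The genes described here are Igf1, its receptor gene Igf1r and the 6 IGF binding protein genes Igfbp2 to Igfbp7. They belong to the insulin-like growth factor (IGF) system and were picked by name, with earlier results of these data known. Each is represented by the single probe set that carries its symbol alone, so that 8 of the 19938 genes analysed are at issue. Levels come from 12 Affymetrix arrays of mouse total RNA, 3 for each of 4 groups, given as log2 intensities already normalized by the authors. In 3 of the groups adipocytes were made in culture, from the immortal fibroblast line 3T3-L1, from fibroblasts taken directly from mouse embryos (PMEF) and from embryonic stem cells (ES). The remaining group, eWAT, is fat tissue of healthy wild-type mice; the abbreviation usually stands for epididymal white adipose tissue. The labels name no genetic change and no drug treatment in any group. They do not state the differentiation media, or the strain, sex and age of the mice. The cultures stem from an established line, from fibroblasts taken directly from embryos and from embryonic stem cells. Origin, culture method and developmental stage therefore cannot be told apart. Each group is described as a biological triplicate.

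IGF1 is a secreted peptide related to insulin. The liver releases it into blood under growth hormone, and many tissues, fat among them, make it locally. It acts through IGF1R, a receptor tyrosine kinase closely related to the insulin receptor, and preadipocytes are known to respond to insulin given at high dose through this receptor. The binding proteins encoded by Igfbp2 to Igfbp6 hold IGF1 and IGF2 with high affinity outside the cell, prolonging their life in blood or keeping them from the receptor, and proteases free the ligand by cutting them. IGFBP7 shares the amino-terminal domain of the family but binds IGFs weakly.

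The arrays of each group lay close together, with Pearson correlations of 0.992 to 0.997 across genes, which are not independent replicates. Array medians over genes were 6.11 to 6.12 in 3T3-L1 and 6.31 to 6.35 in the other groups, so small differences that involve 3T3-L1 turn on how arrays are scaled. Centring each array on its median moved the median difference over all genes between 3T3-L1 and eWAT from 0.046 to 0.256 (log2). The adipocyte marker Adipoq averaged 11.49 ± 0.09 (3T3-L1), 11.99 ± 0.08 (PMEF), 12.21 ± 0.04 (ES) and 12.44 ± 0.03 (eWAT) (log2 level, mean ± SD, n = 3). Of 11 measured adipocyte markers, 8 fell in 3T3-L1, 10 fell in PMEF, and 6 fell and 1 rose in ES adipocytes against eWAT. Leptin (Lep) averaged 4.52 (3T3-L1), 5.75 (PMEF), 6.58 (ES) and 10.44 (eWAT), and the adipocyte transcription factor gene Cebpa was at 7.57 in 3T3-L1 against 10.43 in eWAT (log2 group means). Of markers of other cell types, the 11 macrophage and 12 endothelial genes had summed levels of 12.75 to 13.69 and 12.75 to 13.08 in eWAT, against 9.54 to 11.02 and 8.97 to 9.26 in the cultures (log2 of the summed intensities, range over arrays). Within eWAT, array 1 had the lowest summed macrophage level, 12.75 against 13.38 and 13.69. Array 1 was also the lowest of the eWAT arrays for 5 mast cell genes, at 9.29 against 10.56 and 10.34, and each comparison with eWAT was recomputed without it.

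Apart from Igfbp2, each gene had its lowest group mean in 3T3-L1 adipocytes, and 5 of the 6 binding proteins had their highest in PMEF adipocytes. A gene was called when its adjusted p from the limma fit over all genes was under 0.05, and fell or rose below means such a call for the first group named. Against eWAT, 7 of the 8 genes fell and none rose in 3T3-L1, with a median of -1.9 (log2) beside 0.046 over all genes. In that comparison 30.8% of all genes rose and 22.5% fell. In PMEF, 5 rose and 2 fell (median 0.82 beside 0.046), where 24.7% of all genes rose and 21.6% fell. In ES, 3 rose and 4 fell (median -0.14 beside 0.036), where 28.8% of all genes rose and 20.9% fell. The 3 comparisons share the eWAT arrays.

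Among the cultures the split was the most one-sided against 3T3-L1. All 8 genes were higher in PMEF than in 3T3-L1 adipocytes, with a median of 3.68 beside 0.011 over all genes, of which 22.3% rose and 27.8% fell. All 8 were also higher in ES than in 3T3-L1 adipocytes, with a median of 1.82 beside -0.022, where 20.4% of all genes rose and 23% fell. Between ES and PMEF adipocytes 1 gene rose and 6 fell (median -1.02 beside -0.018), where 23.6% of all genes rose and 19% fell. Of the 48 comparisons of a gene between 2 groups, 44 were called. The scaling matters for the shares over all genes. With arrays centred on their medians 52.5% rose and 15.6% fell in 3T3-L1 against eWAT, 14.2% and 46% in PMEF against 3T3-L1, and 13.1% and 47.2% in ES against 3T3-L1. On the mean of 7 reference genes these were 22.3% and 34.6%, 27.5% and 24.3%, and 28% and 16.9%, and for PMEF against eWAT 18.1% and 27.5%.

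**Figure D1:**
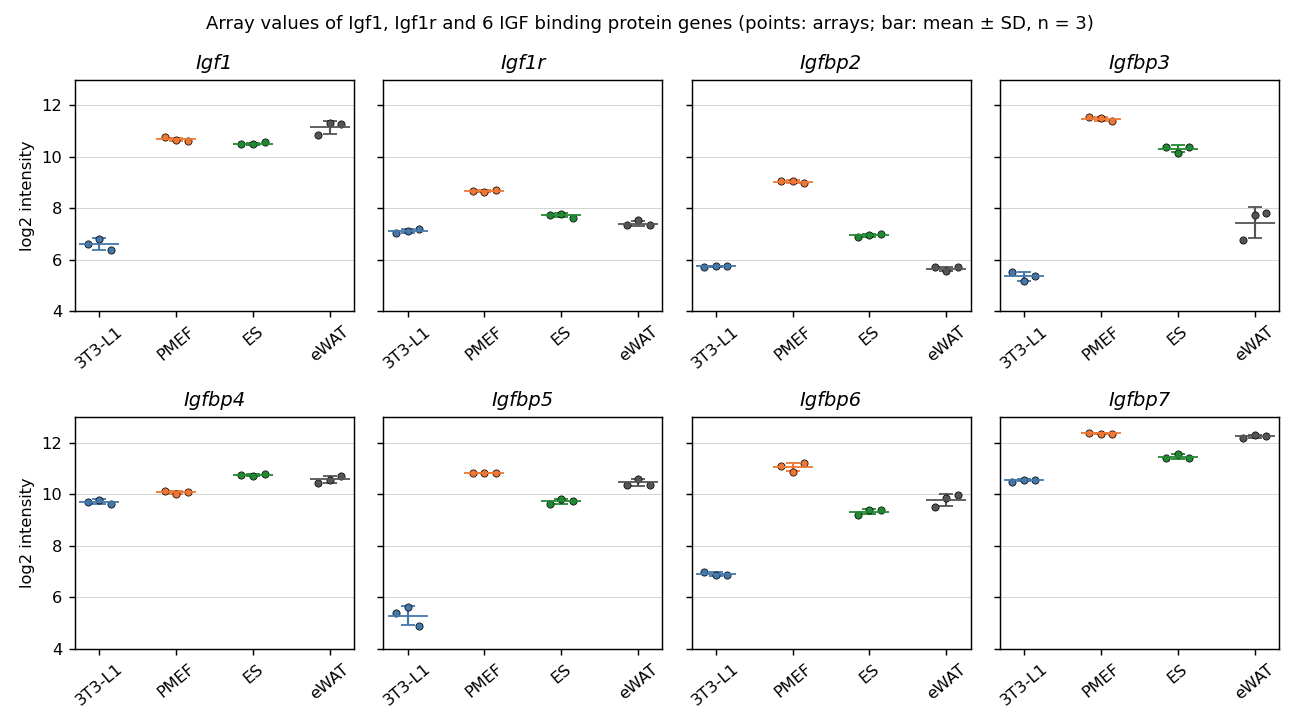
Log2 intensities of Igf1, Igf1r and Igfbp2 to Igfbp7 in the 12 arrays, with points for arrays and bars for the mean ± SD of 3 arrays per group. The 3T3-L1 arrays lie lowest for every gene but Igfbp2, with Igf1 at 6.37 to 6.83 there against 10.49 to 11.32 in all other arrays.

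Igf1, the ligand, was high in tissue and in PMEF and ES adipocytes, and low in 3T3-L1 adipocytes. Its log2 levels were 6.62, 6.83 and 6.37 in the 3T3-L1 arrays and 10.76, 10.67 and 10.61 in the PMEF arrays. They were 10.50, 10.49 and 10.57 in the ES arrays and 10.86, 11.32 and 11.27 in the eWAT arrays. The eWAT arrays thus stood above every culture array, and the 3T3-L1 arrays stood far below all others. In 3T3-L1 adipocytes Igf1 fell by 4.54 ± 0.13 against eWAT (log2 fold change ± SE, n = 3 per group, adjusted p = 3.6e-12), a 23.3-fold difference. The falls were small in PMEF (-0.47 ± 0.13, adjusted p = 0.00788) and ES adipocytes (-0.63 ± 0.13, adjusted p = 0.000944). PMEF and ES adipocytes were neighbours in the order of levels and did not pass the test (-0.16 ± 0.13, adjusted p = 0.356), although their arrays did not overlap. In a tissue or mixed culture, fewer cells that make a transcript and less of it per cell cannot be told apart.

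Macrophages are a known source of IGF1 in fat, and the eWAT array with the lowest macrophage sum also had the lowest Igf1 of its group. The fibroblast and progenitor sum was lowest in that array too, at 13.47 against 13.67 and 13.65. So were its mesothelial, T cell and mast cell sums, while its adipocyte, endothelial and smooth muscle sums were the highest of the group. Without that array Igf1 differed from eWAT by -4.69 (3T3-L1), -0.62 (PMEF) and -0.77 (ES). The summed macrophage level was 10.83 to 11.02 in 3T3-L1, 9.93 to 10.14 in PMEF and 9.54 to 9.62 in ES arrays, and the 3T3-L1 sum was carried by Cd68, at 10.42 there against 7.11 in PMEF and 8.66 in ES. Of the 11 macrophage genes, 6 were higher and 1 (Cd68) lower in PMEF than in 3T3-L1 adipocytes, and none higher and 2 lower in ES than in 3T3-L1. The defining macrophage gene Adgre1 averaged 4.16 ± 0.09 (3T3-L1), 4.98 ± 0.24 (PMEF), 4.06 ± 0.18 (ES) and 9.58 ± 0.74 (eWAT) (log2 level, mean ± SD, n = 3). Fibroblast and progenitor markers moved with Igf1 in the comparisons with 3T3-L1, with 10 of 10 lower in 3T3-L1 than in eWAT. Against 3T3-L1, 10 of 10 were higher in PMEF and 9 of 10 in ES. In the other comparisons they did so only in part. In PMEF against eWAT 7 were higher and 2 lower, while Igf1 fell. In ES against eWAT 1 was higher and 7 lower, and Igf1 fell. In ES against PMEF 10 of 10 were lower, while Igf1 was not called. The part of either cell type in the levels of Igf1 was not tested.

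Igf1r was highest in PMEF adipocytes. Its levels were 8.68, 8.64 and 8.70 in PMEF, 7.75, 7.79 and 7.63 in ES, 7.35, 7.54 and 7.35 in eWAT, and 7.05, 7.13 and 7.21 in 3T3-L1 arrays. No 2 groups overlapped. Against eWAT it rose by 1.26 ± 0.08 in PMEF (2.4-fold, adjusted p = 1.29e-08) and by 0.32 ± 0.08 in ES (adjusted p = 0.00362), and it fell by 0.28 ± 0.08 in 3T3-L1 (adjusted p = 0.00691). The last of these was -0.07 and was not called with arrays centred on their medians (adjusted p = 0.418), while over all settings the value reached -0.45. The insulin receptor gene Insr went the other way in PMEF, at -1.03 ± 0.08 against eWAT (adjusted p = 2.21e-07), and was at 0.12 ± 0.08 in ES (adjusted p = 0.242) and -0.43 ± 0.08 in 3T3-L1 adipocytes (adjusted p = 0.000529).

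**Figure D2:**
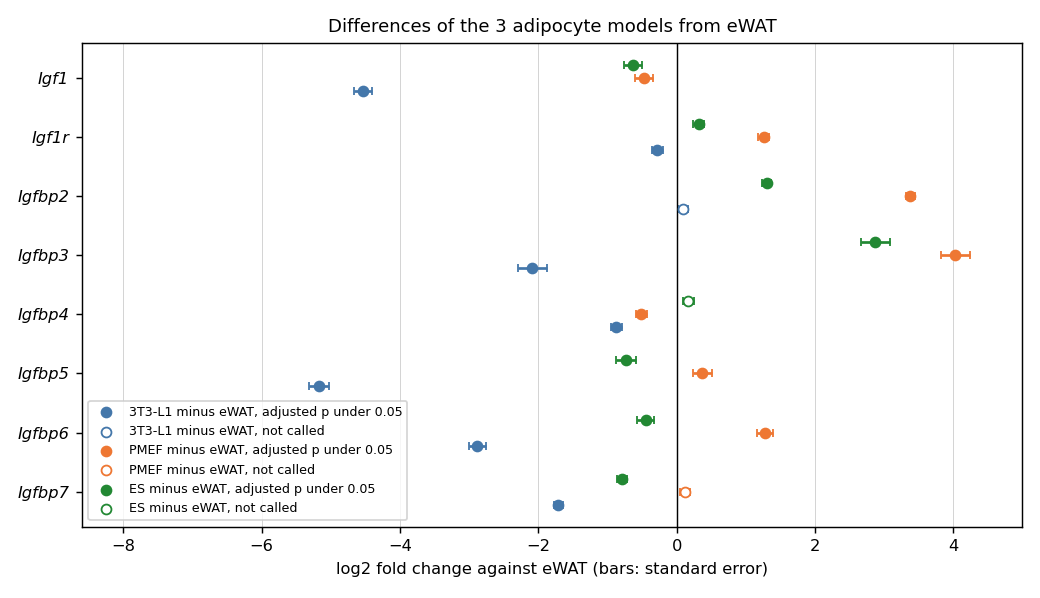
Log2 fold change of each gene in 3T3-L1, PMEF and ES adipocytes against eWAT, with bars for the standard error and open points where the adjusted p was not under 0.05. Igfbp5 at -5.17 and Igf1 at -4.54 (3T3-L1) and Igfbp3 at 4.03 and Igfbp2 at 3.38 (PMEF) lie farthest from 0.

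Igfbp3 encodes the main IGF carrier of blood, and it spanned the widest range of the 8 genes, 6.12 log2 units between its group means. Levels were 11.54, 11.51 and 11.39 in PMEF and 10.39, 10.17 and 10.39 in ES arrays. In eWAT they were 6.76, 7.76 and 7.82, and in 3T3-L1 5.54, 5.17 and 5.36. No groups overlapped, and the spread was widest in eWAT, where array 1 lay 1 log2 unit below the other 2. Igfbp3 rose by 4.03 ± 0.21 in PMEF (16.4-fold, adjusted p = 3.1e-09) and by 2.87 ± 0.21 in ES adipocytes against eWAT (7.32-fold, adjusted p = 1.07e-07), and fell by 2.09 ± 0.21 in 3T3-L1 (adjusted p = 1.52e-06). Without eWAT array 1 these were 3.69, 2.53 and -2.43. Between PMEF and 3T3-L1 adipocytes the difference was 6.12 ± 0.21, or 69.8-fold (adjusted p = 3.71e-11).

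Igfbp5, whose product binds the extracellular matrix and is the most conserved of the family, was far lower in 3T3-L1 than in the other groups. It was at 10.83, 10.83 and 10.81 in PMEF, 10.38, 10.61 and 10.38 in eWAT, 9.63, 9.83 and 9.73 in ES, and 5.37, 5.61 and 4.88 in 3T3-L1 arrays. Every 3T3-L1 array lay more than 4 log2 units below every other array. The fall in 3T3-L1 against eWAT was 5.17 ± 0.14 (36-fold, adjusted p = 3.32e-12), the largest departure from tissue among the 24 comparisons of these genes with eWAT. ES adipocytes fell by 0.73 ± 0.14 (adjusted p = 0.000759). PMEF adipocytes were at 0.37 ± 0.14 (adjusted p = 0.0494), a call at the edge that was lost in 9 of the 12 fits that left out an array, among them those without eWAT array 1 (adjusted p = 0.121), eWAT array 3 (adjusted p = 0.13) or any PMEF array (adjusted p = 0.0924, 0.102 and 0.0947). It was also lost with quantile normalization (adjusted p = 0.108) and 3 other settings. The order of group means, PMEF, eWAT, ES and 3T3-L1, was also that of the fibroblast and progenitor sums. These were 14.61 to 14.63, 13.47 to 13.67, 12.98 to 13.05 and 11.40 to 11.49. The smooth muscle sums, given below with Igfbp7, had the same order. The part of either cell type in the levels of Igfbp5 was not tested.

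Igfbp6 encodes a binding protein that prefers IGF2 over IGF1. Its levels were 11.11, 10.88 and 11.20 in PMEF, 9.51, 9.87 and 9.98 in eWAT, 9.21, 9.39 and 9.39 in ES, and 6.99, 6.88 and 6.85 in 3T3-L1 arrays. The order PMEF, eWAT, ES, 3T3-L1 was free of overlap. Against eWAT it rose by 1.28 ± 0.12 in PMEF (adjusted p = 8.88e-07) and fell by 0.45 ± 0.12 in ES (adjusted p = 0.00574) and by 2.88 ± 0.12 in 3T3-L1 adipocytes (7.35-fold, adjusted p = 1.61e-10). This is again the order of both the fibroblast and progenitor sums and the smooth muscle sums. The part of either cell type in the levels of Igfbp6 was not tested.

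Igfbp2, which is made by white preadipocytes and carries an integrin-binding motif, set PMEF and ES adipocytes apart from the other 2 groups. It was at 9.08, 9.07 and 8.98 in PMEF and 6.90, 6.96 and 7.02 in ES arrays. Levels were 5.73, 5.75 and 5.78 in 3T3-L1 and 5.71, 5.57 and 5.71 in eWAT. PMEF stood alone at the top, and 3T3-L1 and eWAT lay side by side without overlap. The gene rose by 3.38 ± 0.07 in PMEF (10.4-fold, adjusted p = 4.35e-13) and by 1.3 ± 0.07 in ES adipocytes (2.46-fold, adjusted p = 3.36e-09) against eWAT. ES was lower than PMEF (-2.08 ± 0.07, adjusted p = 9.76e-11). In 3T3-L1 Igfbp2 was at 0.09 ± 0.07 against eWAT (adjusted p = 0.278), a value that scaling decides. It was 0.3 and called with arrays centred on their medians (adjusted p = 0.00176), 0.29 and called with quantile normalization (adjusted p = 0.00221), and -0.07 on the reference genes. The 8 mesothelial markers, genes of the lining of body cavities, had a like pattern, with sums of 10.72 to 10.89 in PMEF and 10.15 to 10.20 in ES against 8.53 to 8.58 in 3T3-L1 and 8.58 to 8.74 in eWAT arrays. All 8 markers were higher than in eWAT in both PMEF and ES adipocytes, as were Igf1r, Igfbp2 and Igfbp3. The same held for Igf2, Pappa, Igf2bp1 and Igf2bp3, among other genes of the IGF system, so this pattern is not particular to Igfbp2. Between these 2 cultures the markers were split, with 3 higher and 4 lower in ES than in PMEF, while Igfbp2 was lower in ES. In 3T3-L1 against eWAT 3 of them were higher and 1 lower. The part of mesothelial cells in these levels was not tested.

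Igfbp4 and Igfbp7 varied least among the binding proteins. Igfbp4, an inhibitory binding protein that PAPPA cuts, was at 10.76, 10.71 and 10.78 in ES, 10.45, 10.56 and 10.73 in eWAT, 10.12, 10.01 and 10.07 in PMEF, and 9.71, 9.79 and 9.62 in 3T3-L1 arrays. ES and eWAT overlapped and their difference of 0.17 ± 0.08 did not pass (adjusted p = 0.0943), although it did without eWAT array 3 (0.24, adjusted p = 0.0222). Alone among the 8 genes, Igfbp4 was called higher in ES than in PMEF adipocytes, by 0.68 ± 0.08 (adjusted p = 1.1e-05). Against eWAT it fell by 0.51 ± 0.08 in PMEF (adjusted p = 0.000123) and by 0.87 ± 0.08 in 3T3-L1 (adjusted p = 5.13e-07). The step from 3T3-L1 to PMEF, 0.36 ± 0.08 (adjusted p = 0.00174), shrank to 0.14 after median centring, which ended the call (adjusted p = 0.159).

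Igfbp7 is strongly expressed in blood vessel lining and smooth muscle. Levels were 12.40, 12.36 and 12.36 in PMEF, 12.20, 12.30 and 12.26 in eWAT, 11.42, 11.58 and 11.40 in ES, and 10.49, 10.57 and 10.56 in 3T3-L1 arrays. PMEF and eWAT were neighbours at 0.12 ± 0.07 (adjusted p = 0.176) without overlap of their arrays, and quantile normalization brought this to 0.19 and a call (adjusted p = 0.0316). Against eWAT, Igfbp7 fell in ES (-0.79 ± 0.07, adjusted p = 4.53e-07) and in 3T3-L1 adipocytes (-1.71 ± 0.07, 3.27-fold, adjusted p = 1.12e-10). Endothelial markers summed to 9.17 to 9.25 in PMEF, against 12.75 to 13.08 in eWAT. The 8 smooth muscle markers summed to 12.46 to 12.71 in PMEF, 11.98 to 12.04 in eWAT, 11.07 to 11.30 in ES and 9.94 to 10.04 in 3T3-L1 arrays. This is the same order as Igfbp7, and the fibroblast and progenitor sums had it too. Single smooth muscle markers differed, with 5 higher and 2 lower (Myh11 and Synpo2) in PMEF than in eWAT. Des had its highest group mean in 3T3-L1 (8.07). The part of endothelial, smooth muscle and fibroblast cells in the levels of Igfbp7 was not tested.

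Some of the low levels limit the size of the folds. Without detection calls, the low end can be judged only against other genes, 33.3% of which had a mean below 5.36 over the 12 arrays. Igfbp3 (5.36) and Igfbp5 (5.29) in 3T3-L1 and Igfbp2 in 3T3-L1 (5.75) and eWAT (5.66) lay at or near that level. Among the genes described further on, so did Grb10 (4.89), Htra1 (5.39) and Cish (5.49) in 3T3-L1. Others were Pappa (5.36), Igf2bp1 (4.82) and Igf2bp3 (4.65) in eWAT, and Igfals (5.43 to 5.70) and Ptprb (5.15 to 5.67) in the culture means. Differences that reach such levels are rough in size.

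Igfbp2 and Igfbp5 are direct neighbours on mouse chromosome 1 in the RefSeq annotation (GRCm38.p6), 5590 bases apart with no protein-coding gene between them, yet their patterns differed. Igfbp3 lies beside Igfbp1, the family member best known from liver, on chromosome 11, with 3539 bases between them. Igfbp1 was low in every group, at 4.58 ± 0.04 (3T3-L1), 4.96 ± 0.25 (PMEF), 5.21 ± 0.24 (ES) and 4.5 ± 0.17 (eWAT) (log2 level, mean ± SD, n = 3). The RefSeq promoter windows of 4 genes are printed because these genes show the contrasting patterns: Igfbp3 and Igfbp5 with the widest spans, Igfbp2 as the neighbour of Igfbp5 with another pattern, and Igfbp4 with the narrowest span. Each runs 5′ to 3′ on the gene's strand from 250 bases before its start site to 50 after, with motif matches in capitals.
Igfbp2, chr1:72824230-72824529, plus strand: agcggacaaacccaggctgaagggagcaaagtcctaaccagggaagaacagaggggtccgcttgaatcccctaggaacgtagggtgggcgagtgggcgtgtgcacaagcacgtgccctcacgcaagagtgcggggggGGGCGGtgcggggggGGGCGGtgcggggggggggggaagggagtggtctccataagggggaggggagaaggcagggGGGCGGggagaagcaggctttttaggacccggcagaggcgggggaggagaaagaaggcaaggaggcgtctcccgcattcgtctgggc
Igfbp5, chr1:72874816-72875115, minus strand: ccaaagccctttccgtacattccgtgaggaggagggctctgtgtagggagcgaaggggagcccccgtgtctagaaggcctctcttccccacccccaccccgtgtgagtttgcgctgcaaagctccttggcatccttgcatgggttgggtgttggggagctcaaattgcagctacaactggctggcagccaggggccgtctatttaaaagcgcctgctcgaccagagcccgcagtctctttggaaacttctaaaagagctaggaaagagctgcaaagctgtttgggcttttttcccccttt
Igfbp3, chr11:7213874-7214173, minus strand: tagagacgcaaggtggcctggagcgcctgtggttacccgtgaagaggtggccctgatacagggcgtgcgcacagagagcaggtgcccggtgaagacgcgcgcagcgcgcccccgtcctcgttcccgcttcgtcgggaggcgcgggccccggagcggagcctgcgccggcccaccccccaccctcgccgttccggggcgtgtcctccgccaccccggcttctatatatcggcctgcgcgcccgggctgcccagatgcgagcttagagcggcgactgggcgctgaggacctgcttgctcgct
Igfbp4, chr11:99040994-99041293, plus strand: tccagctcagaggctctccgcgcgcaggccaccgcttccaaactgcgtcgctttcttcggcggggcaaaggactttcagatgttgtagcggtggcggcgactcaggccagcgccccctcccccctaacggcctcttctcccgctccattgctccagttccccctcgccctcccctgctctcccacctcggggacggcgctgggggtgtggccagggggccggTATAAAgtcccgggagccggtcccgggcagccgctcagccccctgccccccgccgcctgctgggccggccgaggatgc

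All 8 genes matched the RefSeq promoter table, with 9 windows in total, since Igfbp2 has a second window that is not shown. On both strands, 6 motifs were searched. They were the TATA box TATAAA, the GC box GGGCGG, the CCAAT box, the C/EBP motif TTGCNNAA, the nuclear receptor motif AGGTCA and the STAT motif TTCNNNGAA. In the printed windows the matches are 3 GC boxes of Igfbp2 and the TATA box of Igfbp4, which starts 28 bases before the start site. Windows of all 8 genes together held a GC box in 3 genes (Igf1r, Igfbp2 and Igfbp7), a TATA box in 2 (Igfbp4 and Igfbp6), a CCAAT box in 2 (Igf1 and Igfbp6) and the nuclear receptor motif in 2 (Igf1 and Igf1r). The TATA letters of Igfbp6 lie on the opposite strand, at -148 to -143 from the start site, unlike those of Igfbp4. Of 32841 promoter windows of the same length, 35.7% held the GC box, 13.6% the TATA box, 37.4% the CCAAT box and 16.3% the nuclear receptor motif. The C/EBP and STAT letters, present in 10.8% and 8.3% of all windows, were in no window of the 8 genes. The GC content of the printed windows was 67% for Igfbp2, 56.3% for Igfbp5, 71.7% for Igfbp3 and 71.3% for Igfbp4, beside a median of 52.7% over all windows. The Igfbp3 and Igfbp5 windows held none of the 6 motifs.

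Other genes of the IGF system were taken from a list of 70, of which 62 were analysed here. Against eWAT, 17 rose and 30 fell in 3T3-L1 (median -0.24), 25 rose and 18 fell in PMEF (median 0.11), and 24 rose and 23 fell in ES adipocytes (median 0.09). As shares of the 62, 27.4% rose and 48.4% fell in 3T3-L1, beside 30.8% and 22.5% of all genes. In PMEF 40.3% rose and 29% fell, beside 24.7% and 21.6%, and in ES 38.7% rose and 37.1% fell, beside 28.8% and 20.9%. Medians over all genes were 0.046, 0.046 and 0.036. Between cultures, 34 rose and 15 fell in PMEF against 3T3-L1 (54.8% and 24.2%, beside 22.3% and 27.8% of all genes). In ES against 3T3-L1 30 rose and 13 fell (48.4% and 21%, beside 20.4% and 23%). In ES against PMEF 18 rose and 28 fell (29% and 45.2%, beside 23.6% and 19%). With arrays centred on their medians the counts were 22 and 24 for 3T3-L1 against eWAT, where 52.5% of all genes rose and 15.6% fell. They were 25 and 19 for PMEF against 3T3-L1 (all genes 14.2% and 46%). For ES against 3T3-L1 they were 20 and 21 (all genes 13.1% and 47.2%).

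**Figure D3:**
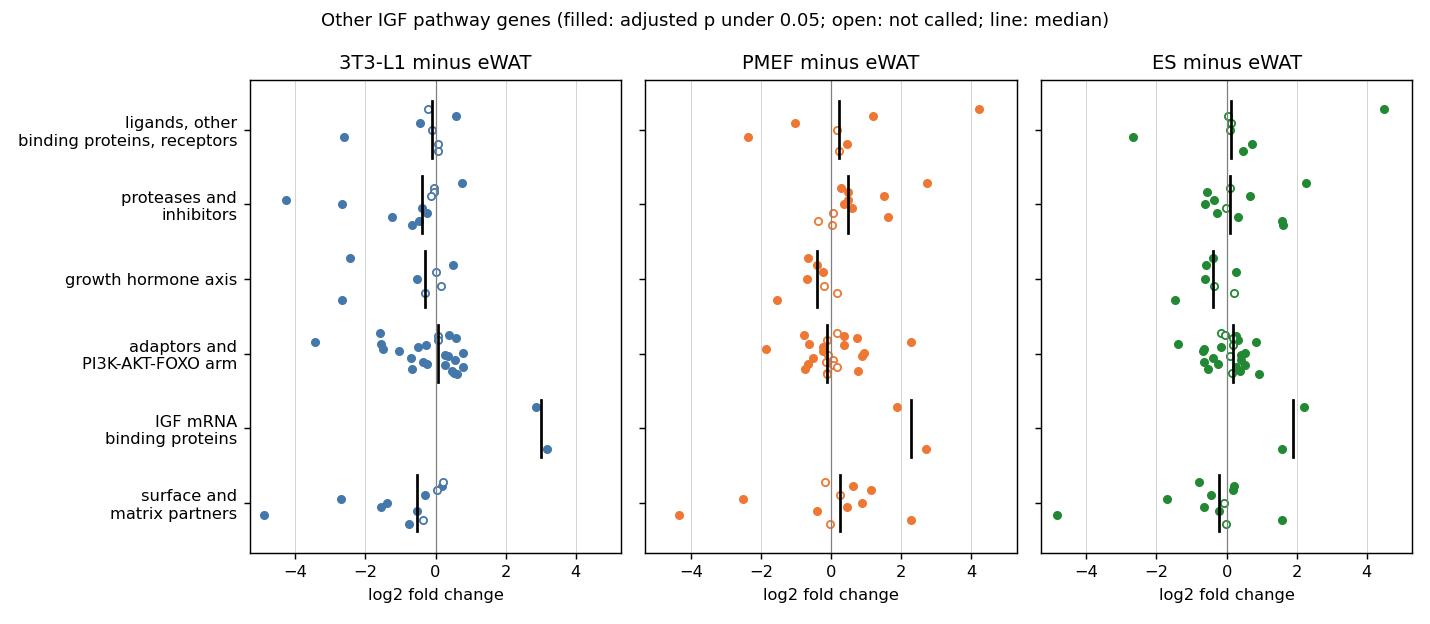
Log2 fold changes against eWAT of the 62 other IGF system genes in 6 groups by role, with filled points for calls, open points for genes not called and a line at each median. Igf2 stands apart at 4.23 in PMEF and 4.50 in ES, and Htra1 at -4.26 and Ptprb at -4.88 lie lowest in 3T3-L1.

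Among ligands and carriers, Igf2, the second IGF and a fetal growth factor, parted from Igf1. It was at 6.99, 7.17 and 6.95 in 3T3-L1, 11.47, 11.56 and 11.42 in PMEF, 11.74, 11.73 and 11.79 in ES, and 6.83, 7.62 and 7.31 in eWAT arrays. Only PMEF and ES adipocytes were high. It rose by 4.23 ± 0.15 in PMEF (18.7-fold, adjusted p = 5.56e-11) and 4.50 ± 0.15 in ES (22.6-fold, adjusted p = 4.43e-11) against eWAT. In 3T3-L1 it was at -0.22 ± 0.15 (adjusted p = 0.239), and at -0.43 with a call without eWAT array 1 (adjusted p = 0.00254). Igfals, the subunit that joins IGFBP3 and IGF in the large complex of blood, was at 8.09 ± 0.09 in eWAT and 5.43 to 5.70 in the means of the cultures, with differences of -2.60 ± 0.09 (3T3-L1), -2.38 ± 0.09 (PMEF) and -2.66 ± 0.09 (ES; adjusted p = 2.84e-11, 1.1e-10 and 5.42e-11). Igf2r, which clears IGF2, rose by 1.2 ± 0.08 in PMEF (adjusted p = 2.32e-08) and by 0.58 ± 0.08 in 3T3-L1 (adjusted p = 2.22e-05), and was at 0.04 ± 0.08 in ES adipocytes (adjusted p = 0.689).

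Of 11 proteases of the binding proteins and inhibitors of these proteases, 7 fell and 1 rose in 3T3-L1 against eWAT, 8 rose and none fell in PMEF, and 5 rose and 4 fell in ES adipocytes. Their shares were 9.09% higher and 63.6% lower in 3T3-L1 (all genes 30.8% and 22.5%), 72.7% higher in PMEF (all genes 24.7%), and 45.5% higher and 36.4% lower in ES (all genes 28.8% and 20.9%). Pappa, the protease of IGFBP4, was at 5.36 ± 0.29 in eWAT, 6.10 ± 0.17 in 3T3-L1, 7.61 ± 0.07 in ES and 8.10 ± 0.17 in PMEF, and so was called higher in every culture, by 0.74 ± 0.13 (adjusted p = 0.000321), 2.25 ± 0.13 (adjusted p = 1.27e-08) and 2.73 ± 0.13 (adjusted p = 1.48e-09). Its inhibitors Stc2 and Stc1 rose in ES adipocytes by 1.62 ± 0.10 (adjusted p = 1.55e-08) and 1.59 ± 0.16 (adjusted p = 1.44e-06) against eWAT. In PMEF they were at 0.03 ± 0.10 (adjusted p = 0.809) and -0.37 ± 0.16 (adjusted p = 0.0672; Stc1 without eWAT array 1, -0.59, adjusted p = 0.000898), and ES was higher than PMEF by 1.58 ± 0.10 for Stc2 (adjusted p = 3.35e-08) and 1.96 ± 0.16 for Stc1 (adjusted p = 2.95e-07). Htra1, a serine protease known to cut IGFBP5, was at 5.39 ± 0.13 in 3T3-L1, against 9.28 ± 0.09 in ES, 9.65 ± 0.08 in eWAT and 10.12 ± 0.03 in PMEF. Its fall of 4.26 ± 0.08 in 3T3-L1 (19.1-fold, adjusted p = 7.89e-14) stood beside that of Igfbp5, -5.17.

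Upstream of Igf1, the growth hormone receptor gene Ghr was lowest in 3T3-L1, as Igf1 was. It was at 9.81 ± 0.07 in 3T3-L1, 11.59 ± 0.07 in PMEF, 11.87 ± 0.03 in ES and 12.26 ± 0.03 in eWAT, with a fall of 2.45 ± 0.06 in 3T3-L1 (adjusted p = 2.12e-12), 0.67 ± 0.06 in PMEF (adjusted p = 1.3e-06) and 0.38 ± 0.06 in ES (adjusted p = 0.000211). Of the 7 genes of this axis, 3 fell and 1 rose in 3T3-L1, 5 fell and none rose in PMEF, and 4 fell and 1 rose in ES adipocytes against eWAT. The shares that fell were 42.9%, 71.4% and 57.1%, beside 22.5%, 21.6% and 20.9% of all genes. Cish, a growth hormone target, ranged widely in eWAT, with 6.49 in array 1 and 8.69 and 9.34 in the other 2, so array 1 lay below every PMEF and ES array. Without eWAT array 1 the differences of Cish from eWAT were -3.52 for 3T3-L1 (with it, -2.68), -2.39 for PMEF and -2.32 for ES, all called (adjusted p = 5.46e-10, 3.29e-08 and 4.73e-08). Its calls in PMEF (-1.54 ± 0.49, adjusted p = 0.0187) and ES (-1.48 ± 0.49, adjusted p = 0.0217) against eWAT were lost without eWAT array 2 (adjusted p = 0.0816 and 0.093) or eWAT array 3 (adjusted p = 0.09 and 0.108). They were also lost without PMEF array 2 (adjusted p = 0.055, PMEF) and without ES array 1 or 2 (adjusted p = 0.0549 and 0.0521, ES).

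Below the receptor, of 24 measured genes, 11 rose and 11 fell in 3T3-L1 against eWAT (45.8% each, beside 30.8% and 22.5% of all genes). In PMEF 7 rose and 8 fell (29.2% and 33.3%, beside 24.7% and 21.6%), and in ES adipocytes 10 rose and 8 fell (41.7% and 33.3%, beside 28.8% and 20.9%). Grb10, an imprinted adaptor that restrains insulin and IGF1 receptor signalling, was at 4.89 ± 0.11 in 3T3-L1, 8.31 ± 0.04 in eWAT, 9.14 ± 0.08 in ES and 10.60 ± 0.04 in PMEF. It was higher in PMEF than in 3T3-L1 by 5.71 ± 0.07 (log2, adjusted p = 6.28e-15), a size that is rough because the 3T3-L1 level lies in the dim range. Irs1, the main docking protein of both receptors, fell by 1.58 ± 0.06 in 3T3-L1 (adjusted p = 1.41e-10) and was at 0.16 ± 0.06 in PMEF (adjusted p = 0.0588; without eWAT array 1, 0.19 and called, adjusted p = 0.0367) and -0.15 ± 0.06 in ES (adjusted p = 0.0684). Irs2 was at 0.39 ± 0.13 in 3T3-L1 (adjusted p = 0.0234), -0.76 ± 0.13 in PMEF (adjusted p = 0.000285) and -0.06 ± 0.13 in ES adipocytes (adjusted p = 0.76) against eWAT. Without eWAT array 1 the first was 0.2 and not called (adjusted p = 0.081) and the last -0.25 and called (adjusted p = 0.0352), and the first was also lost without 3T3-L1 array 2 (adjusted p = 0.0739).

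The 2 analysed genes for RNA-binding proteins of fetal IGF transcripts were higher in all 3 cultures than in eWAT, while Igf2bp2 was not measured. Igf2bp1 rose by 2.86 ± 0.12, 1.87 ± 0.12 and 2.2 ± 0.12 in 3T3-L1, PMEF and ES adipocytes (adjusted p = 2.08e-10, 2.4e-08 and 5.54e-09), and Igf2bp3 by 3.17 ± 0.09, 2.70 ± 0.09 and 1.59 ± 0.09 (adjusted p = 5.48e-12, 4.46e-11 and 9.22e-09). Both had their highest group mean in 3T3-L1, at 7.69 ± 0.03 for Igf2bp1 and 7.81 ± 0.08 for Igf2bp3. Of 11 surface and matrix partners of the binding proteins, 7 fell and 1 rose in 3T3-L1, 5 rose and 3 fell in PMEF, and 3 rose and 6 fell in ES adipocytes. The shares that rose were 9.09%, 45.5% and 27.3%, beside 30.8%, 24.7% and 28.8% of all genes, and those that fell 63.6%, 27.3% and 54.5%, beside 22.5%, 21.6% and 20.9%. Ptprb, a phosphatase of vessel lining, had the largest fall in each, by 4.88 ± 0.10, 4.35 ± 0.10 and 4.83 ± 0.10 (adjusted p = 1.96e-13, 1.55e-12 and 1.06e-12). Endothelial markers fell with it, 12 of 12 in each culture, and their part was not tested. Another phosphatase gene of this list, Ptprz1, was at 3.66 in 3T3-L1, 6.31 in PMEF, 5.61 in ES and 4.03 in eWAT (log2 group means). Lrp1, a scavenger receptor that binds IGFBP3, was at 9.33 ± 0.01 in 3T3-L1, 10.23 ± 0.05 in ES, 10.88 ± 0.09 in eWAT and 11.34 ± 0.02 in PMEF.

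The genes with the most similar patterns were sought among 4919 genes whose group means spanned at least 1 log2 unit, by Pearson correlation over the 12 arrays. With 4 groups of 3 arrays the correlations rest on few independent points and describe the pattern of group means. Igf1 was closest to Adgre5 (r = 0.996), Serpina3n (0.995) and Serping1 (0.994), all lower in 3T3-L1 than in the other groups. Igfbp3 was closest to Sfrp1 (0.997), a secreted Wnt inhibitor at 4.27 in 3T3-L1, 6.86 in eWAT, 10.50 in ES and 11.75 in PMEF (log2 group means). Igfbp6 was closest to Sfrp2 (0.998), Lbp (0.994) and the matrix proteoglycan Lum (0.993), and Igfbp2 to the hyaluronan-degrading gene Cemip (0.999), Mrc2 (0.997) and Ikbip (0.996).

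**Figure D4:**
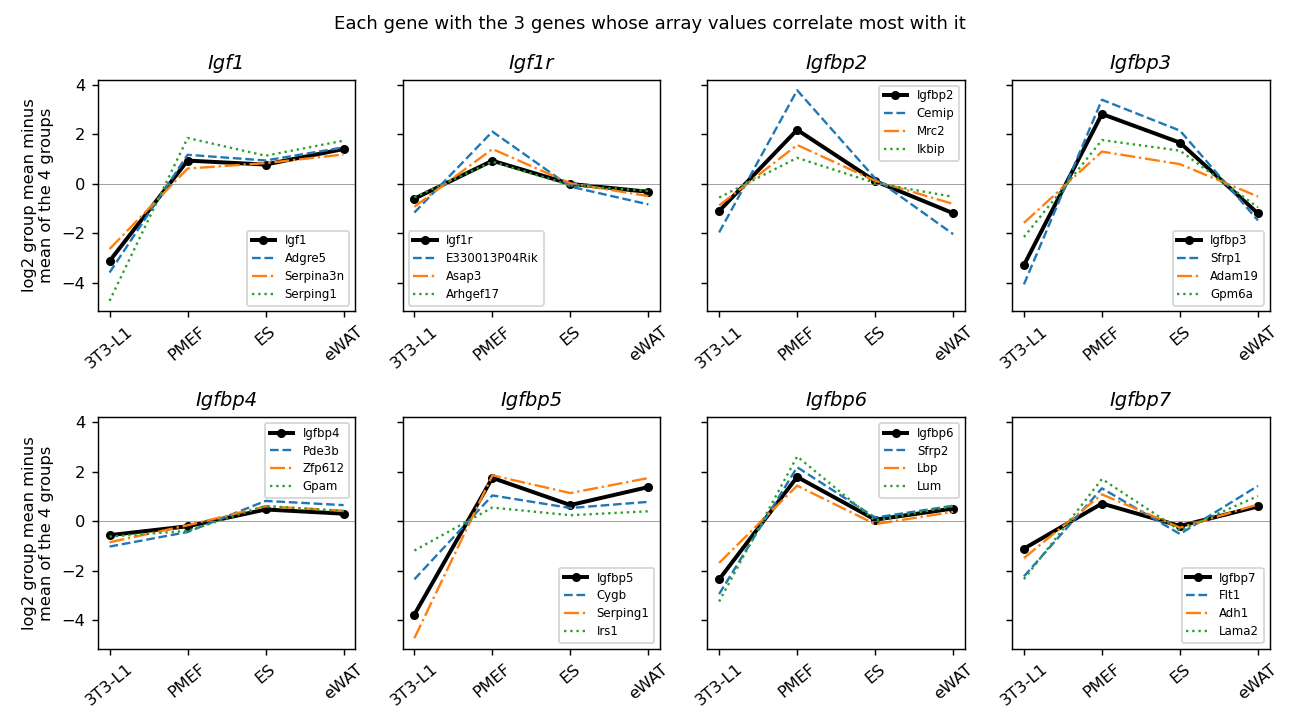
Group means of each of the 8 genes (black) and of the 3 genes with the highest correlation to it over the 12 arrays, as log2 differences from the mean of the 4 groups. Igfbp4 is the flattest of the 8, and Sfrp1 tracks Igfbp3 with r = 0.997.

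Igfbp5 was closest to Cygb (0.997), Serping1 (0.995) and Irs1 (0.995), so that Serping1, a complement inhibitor gene, stood near both Igf1 and Igfbp5. Igfbp4 was closest to Pde3b (0.989), the phosphodiesterase of the antilipolytic insulin response, Zfp612 (0.981) and Gpam (0.972), an enzyme of triglyceride synthesis, and Igfbp7 to Flt1 (0.994), Adh1 (0.994) and Lama2 (0.992). Igf1r was closest to E330013P04Rik (0.994), Asap3 (0.993) and Arhgef17 (0.992). Among the 8 genes themselves the highest correlations were 0.984 for Igf1 with Igfbp5, 0.970 for Igf1r with Igfbp2 and 0.955 for Igfbp5 with Igfbp6. Igfbp4 showed the lowest, at -0.063 with Igfbp2 and 0.041 with Igf1r.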

How the data were processed

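RNA of 12 samples was extracted with TRIzol and labelled from 300 ng per array, per the labels' protocols. The deposited table holds 35556 probe sets as log2 intensities, normalized by the authors with a method that no source here states; the log2 base was read from the values (1.11 to 13.48). Of the probe sets 21789 carried 1 symbol, 1621 several and 12146 none; the first were used, with symbols matched by Entrez ID to RefSeq, and the brightest probe set stood for a gene with several. Each of the 8 genes had exactly 1 probe set. A model of the 4 groups over all 12 arrays was fitted (limma 3.58.1, R 4.3.3; 8 residual and 4.88 prior degrees of freedom), without a filter, and p-values were adjusted by Benjamini-Hochberg over 19938 genes in each of 6 comparisons. The number of arrays limits the precision. Members and gene lists were chosen with earlier results of these data known. Named genes were drawn from the 8 genes, 8 fixed pathway genes, the 3 most changed called members of each pathway list per direction and comparison, the 3 most alike genes, and cell type markers. Not all pathway genes that met this rule are described, Htra3 and Mmp2 among those left out. Arrays with the same replicate number did not deviate together, so arrays were treated as unpaired. Summed log2 levels of adipocyte markers were 14.73 to 14.81 (3T3-L1), 14.86 to 14.89 (PMEF), 15.23 to 15.25 (ES) and 15.40 to 15.48 (eWAT), and of T cell markers 7.12 to 7.37, 7.21 to 7.42, 7.10 to 7.24 and 7.91 to 8.11. Alternatives were quantile normalization, centring on medians or on 7 reference genes, a filter on dim genes, the mean of probe sets, fits on 2 groups, a replicate block, array weights, a trended robust variance, adjustment over all comparisons together, limma treat, and leaving out each array.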

Additional observations from a re-analysis of the deposited data

How the results depend on the processing

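Of the 44 calls on the 8 genes, 41 were kept under all 22 settings other than limma treat; the exceptions are Igf1r in 3T3-L1 against eWAT, Igfbp4 in PMEF against 3T3-L1 and Igfbp5 in PMEF against eWAT. Of the 4 comparisons not called, 3 were called under some setting, and no called value changed sign. Under treat, which asks for more than a 2-fold change, 23 of 48 were called, since the threshold is stricter by construction. Counts of the 8 genes were then 3 in PMEF and 2 in ES against eWAT, 4 in ES against 3T3-L1 and 2 in ES against PMEF. Pathway genes called under treat numbered 16, 12 and 10 in 3T3-L1, PMEF and ES against eWAT, 12 in PMEF and 12 in ES against 3T3-L1, and 4 in ES against PMEF, and all genes 1828, 1274, 1118, 1579, 955 and 610 in the same order. With the replicate block the 8 genes gave 7, 7, 7, 8, 8 and 7 calls, the same numbers as without it; correlations of same-numbered arrays ran from -0.137 to 0.108, so the numbers share only a label. No detection calls were used, so low levels have no background limit.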

Other observations

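Differences between 2 genes within the same array do not depend on how arrays are centred. The pairs described here were chosen after their values were seen, and with 3 against 3 arrays the exact two-sided permutation test cannot go below p = 0.1. The log2 difference of Igf1r and Insr shifted by 2.29 from eWAT to PMEF adipocytes (exact p = 0.1), towards Igf1r. Insr still had the higher intensity, with differences of -0.58, -0.48 and -0.59 in the PMEF arrays. In the eWAT arrays the differences were -2.86, -2.65 and -3.01. The shift from eWAT was 0.15 in 3T3-L1 (exact p = 0.4) and 0.19 in ES adipocytes (exact p = 0.2). The difference of Igf1 and Igfbp3 shifted by -4.50 in PMEF, -3.50 in ES and -2.45 in 3T3-L1 (exact p = 0.1 each), away from the ligand in every culture. The difference of the neighbouring genes Igfbp2 and Igfbp5 shifted by 3.01, 2.03 and 5.26 in the same groups (exact p = 0.1 each), towards Igfbp2. In 3T3-L1, Igfbp2 (5.75), Igfbp5 (5.29) and Igfbp3 (5.36) lay at or near the dim range, so the 3T3-L1 shifts that involve them are rough in size. Igfbp2 was not called there against eWAT, while Igfbp5 was at -5.17.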
